A study of Mus musculus with 6 samples.

Results

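Ketone body metabolism is described here by 3 genes, *Bdh1*, *Oxct1* and *Acat1*, out of 54232 genes counted in heart ventricle. The genes were listed by their enzymatic role, with earlier results of these data known, and were looked up by symbol in GENCODE M21. The samples came from wild-type C57BL/6J mice fed a western diet (WD), a diet rich in fat and sucrose, for 15 weeks. Of these, 3 mice were then needle-fed Tributyrin, a triglyceride that releases butyrate, for 3 weeks at 5 g/kg of body weight (WD + Tributyrin), and 3 received vehicle (WD + Vehicle), which the labels call PBS. Every mouse was on WD, so no lean control enters the comparison. The labels give neither the age nor the sex of each mouse. The study used males and females, and the sex-linked transcripts given below were those of males in all 6 samples.

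Ketone bodies are made in liver mitochondria from acetyl-CoA and are burned by the heart, which takes up β-hydroxybutyrate and acetoacetate from the blood. In the heart, BDH1 first oxidises β-hydroxybutyrate to acetoacetate in the mitochondrion. SCOT, the protein of *Oxct1*, then moves a CoA group from succinyl-CoA onto acetoacetate, a step that hepatocytes lack. The thiolase ACAT1 splits the resulting acetoacetyl-CoA into acetyl-CoA for the TCA cycle, and it also acts in the degradation of isoleucine. The comparison asks whether the transcripts of this route differ between the ventricles of WD + Tributyrin and WD + Vehicle mice.

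The sequences around the annotated transcription starts of *Bdh1* and *Oxct1* are shown because these were the members with a window in the set used, and *Acat1* had none. They are RefSeq windows on GRCm38.p6, in which 2 of the 3 members were found, plus strand, from 200 bases before to 30 bases after a start, and capitals mark CG dinucleotides. *Bdh1* has 2 such starts, at chr16:31422097-31422326 and chr16:31428553-31428782, and the *Oxct1* window is chr15:4026228-4026457.
Bdh1, first start: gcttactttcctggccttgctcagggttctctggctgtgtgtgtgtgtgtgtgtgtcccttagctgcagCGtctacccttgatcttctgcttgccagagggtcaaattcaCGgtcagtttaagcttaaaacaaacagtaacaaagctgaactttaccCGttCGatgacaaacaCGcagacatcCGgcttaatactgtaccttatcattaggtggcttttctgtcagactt
Bdh1, second start: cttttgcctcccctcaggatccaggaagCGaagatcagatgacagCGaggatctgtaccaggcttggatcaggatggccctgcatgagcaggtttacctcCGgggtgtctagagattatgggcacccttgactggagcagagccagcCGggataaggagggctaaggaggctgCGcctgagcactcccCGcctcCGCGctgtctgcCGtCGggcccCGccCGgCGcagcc
Oxct1: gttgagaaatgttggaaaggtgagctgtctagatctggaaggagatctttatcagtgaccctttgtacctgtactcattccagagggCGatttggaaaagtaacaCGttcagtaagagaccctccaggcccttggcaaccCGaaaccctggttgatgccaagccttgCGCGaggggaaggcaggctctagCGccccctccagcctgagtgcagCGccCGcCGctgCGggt
The first *Bdh1* window holds 6 CG dinucleotides, which is also the median over all 32851 windows of the same length, while the second holds 13 and the *Oxct1* window 10. The GC content of the first *Bdh1* window was 46.5%, that of the second 63.5% and that of the *Oxct1* window 56.1%, with a median of 53.5% over all windows. Both strands were searched for 6 motifs, of which only the shortest GC-rich one was found. The letters GGGCGG (GC box) occur in the second *Bdh1* window on the minus strand, and in 33.1% of all windows. The other motifs were not found in the 3 windows, namely TCAAGGTCA (ERR response element, in 0.307% of all windows), DR1, which repeats AGGTCA after 1 base (0.0365%), that half-site on its own, which lies within both longer motifs (12.7%), CCAAT (31.7%) and TATAAA (10.7%). Which start these hearts used was not measured by counts per gene.

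The libraries held 20369746 to 32734485 counts on genes, and mitochondrial transcripts took 23.6% to 26.5% of them with vehicle and 25.9% to 28.8% with Tributyrin. The ventricular markers summed to between 1375816 and 1410724 normalized counts with vehicle and between 1329185 and 1446415 with Tributyrin, where a normalized count is a count divided by the size factor of its library. The atrial markers summed to 4788, 4540 and 1414 in the vehicle mice and to 815.4, 1687 and 1219 in the Tributyrin mice, so vehicle replicates 1 and 2 stood apart. Of the 4 hepatocyte markers, *Alb* and *Fgb* had no count in any library. The list summed to at most 5.4 normalized counts with vehicle and 12.6 with Tributyrin, in replicate 3. Transcripts of the Y-linked *Ddx3y* were at 1802 to 2241 normalized counts in all 6 libraries, with *Xist* at no more than 6.2, the pattern of male mice. The groups were compared with edgeR's quasi-likelihood test, and p-values were adjusted by the Benjamini-Hochberg method over the 14133 genes that passed the low-count filter, to which all 3 members belonged. With this test 0 of those genes passed an FDR of 10%, or 0% of the genes tested, and 600 (4.25%) had an unadjusted p under 0.05. Without the low-count filter 167 genes passed 10% (0.653%), DESeq2 called 11 (0.0835%) and a fit with the replicate number as a block called 2 (0.0142%). Samples are taken as separate mice. Each p-value sets a difference against the spread between these samples, which edgeR estimates partly from all genes together.

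None of the 3 ketone body genes passed an FDR of 10% between WD + Tributyrin and WD + Vehicle, where 0% of all genes did. *Oxct1* and *Acat1* were close to equal in both groups, with group means 1.32% and 5.5% apart. *Bdh1* was nearly equal in the vehicle mice and spread widely in the Tributyrin mice, where replicates 1 and 2 lay far below every vehicle mouse and replicate 3 lay above them.

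*Bdh1* (ENSMUSG00000046598) codes for protein and lies at chr16:31422280-31458901 in GRCm38, plus strand, with 3888 exonic bases and 7 annotated transcripts. Its normalized counts were 2459, 2439 and 2399 in vehicle replicates 1, 2 and 3. They were 1286, 1517 and 2673 in Tributyrin replicates 1, 2 and 3. The groups therefore overlapped only through Tributyrin replicate 3, the highest of all 6 libraries. The means were 2433 ± 30.7 with vehicle and 1825 ± 743.2 with Tributyrin (SD, n = 3 each). The difference was -607.5 normalized counts with a standard error of 429.4, or -25% (two-sided exact permutation test, p = 0.4, where 0.1 is the smallest p that 3 mice against 3 allow). The log2 fold change was -0.42 (standard error 0.21), with a 95% interval from 0.54-fold to 1.04-fold. By edgeR's quasi-likelihood test its unadjusted p was 0.0758. The adjusted p was 0.999 over the 14133 genes tested, so *Bdh1* did not pass an FDR of 10%.

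**Figure D1:**
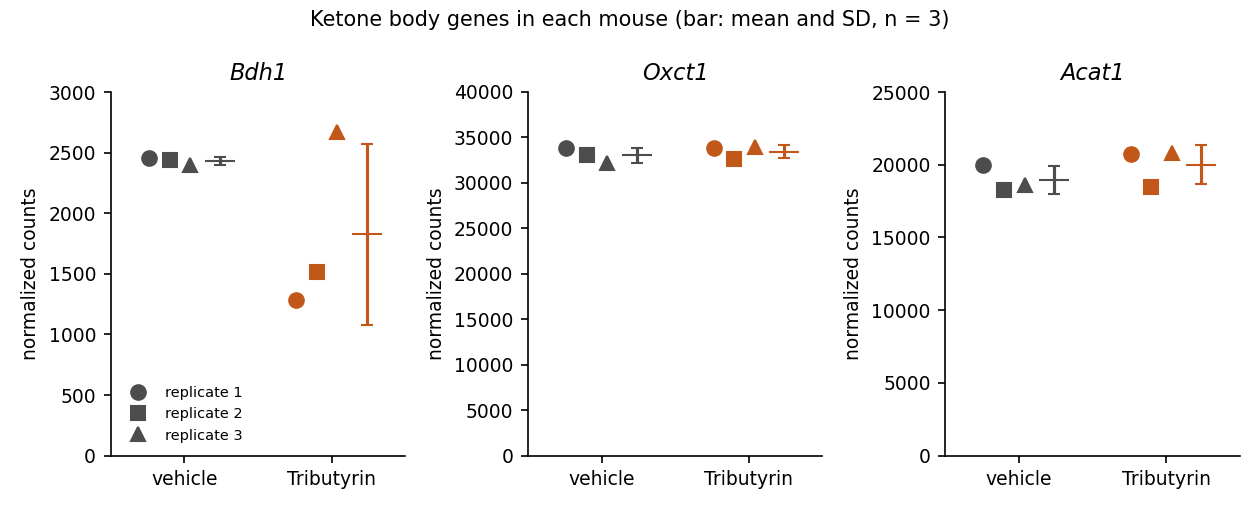
Normalized counts (y axes, from 0) of *Bdh1*, *Oxct1* and *Acat1* in each vehicle and Tributyrin mouse, with 1 point per mouse shaped by replicate number and the mean ± SD beside it. The *Bdh1* points of the vehicle mice lie between 2399 and 2459 while those of the Tributyrin mice run from 1286 to 2673, and the points of both groups overlap in all 3 panels.

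The coefficient of variation (CV, the SD as a percent of the mean) was 1.26% among vehicle mice and 40.7% among Tributyrin mice. Counting alone gives an SD of 1.78% to 2.28% of the value in the vehicle libraries and of 2.07% to 2.7% in the Tributyrin libraries. The vehicle mice thus agreed more closely than their counts alone would give on average, and a comparison of the 2 CVs rests in part on that low value. At or above the mean level of *Bdh1* there were 1635 tested genes, *Bdh1* included, with a median CV of 4.2% among vehicle mice and 7.61% among Tributyrin mice. Of these genes, 6 had a larger CV than *Bdh1* among Tributyrin mice and 99 a smaller CV among vehicle mice. The CV was larger among Tributyrin mice for 75.6% of them. Each CV rests on 3 mice, and these ranks are a description with no test.

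**Figure D2:**
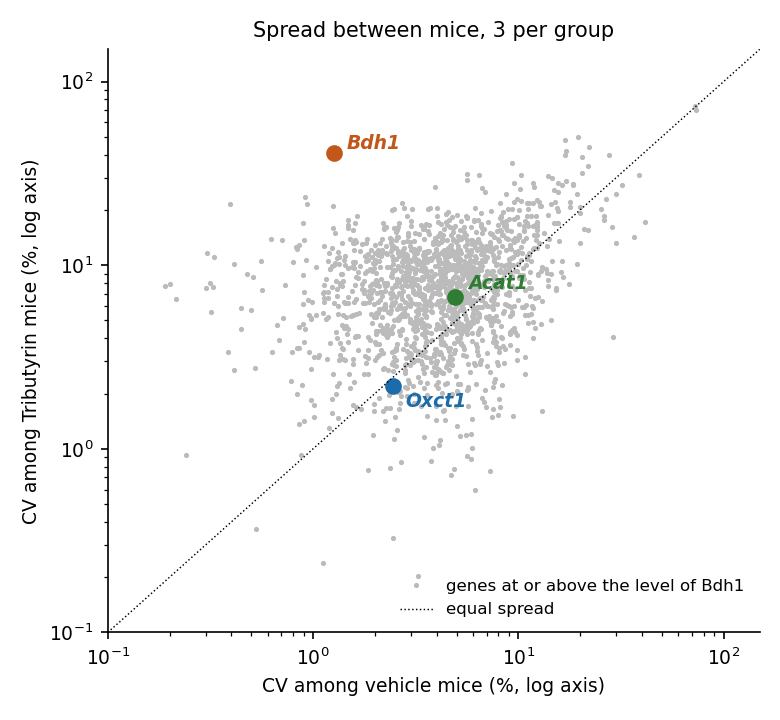
CV among the 3 vehicle mice (x axis, %, log scale) against CV among the 3 Tributyrin mice (y axis, %, log scale) for the 1635 tested genes at or above the level of *Bdh1*, with 1 grey point per gene and the dotted line at equal spread. *Bdh1* sits at 1.26% and 40.7%, far above the line, while *Oxct1* (2.45% and 2.2%) and *Acat1* (4.94% and 6.7%) lie close to it.

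Leaving out 1 mouse changed the call of *Bdh1* for Tributyrin replicate 3 alone. Only that mouse made the groups overlap, so without it they separate by construction. Without that mouse the log2 fold change was -0.79 (standard error 0.086, adjusted p = 0.0331 by edgeR's quasi-likelihood test), the gene ranked 1 of 14521 genes by unadjusted p, and the genes called, 3 in all, were 0.0207% of the genes tested. Without Tributyrin replicate 1 it was -0.21 and without Tributyrin replicate 2 it was -0.30, with adjusted p of 1 and 0.716. Leaving out a vehicle mouse gave -0.40 to -0.43. Testing all 25581 genes with a count, without the low-count filter, left the log2 fold change at -0.42 but gave an adjusted p of 0.00157 by edgeR, where 0.653% of genes passed 10%. The prior degrees of freedom of that fit were infinite, compared with 6.31 when the filter was used. With such a prior the test takes the spread from all genes together, and the gene's own samples add nothing to it. The standard error was 0.09 in that fit, against 0.212 with the filter. DESeq2 gave -0.42 with a standard error of 0.32 and an adjusted p of 1.

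**Figure D3:**
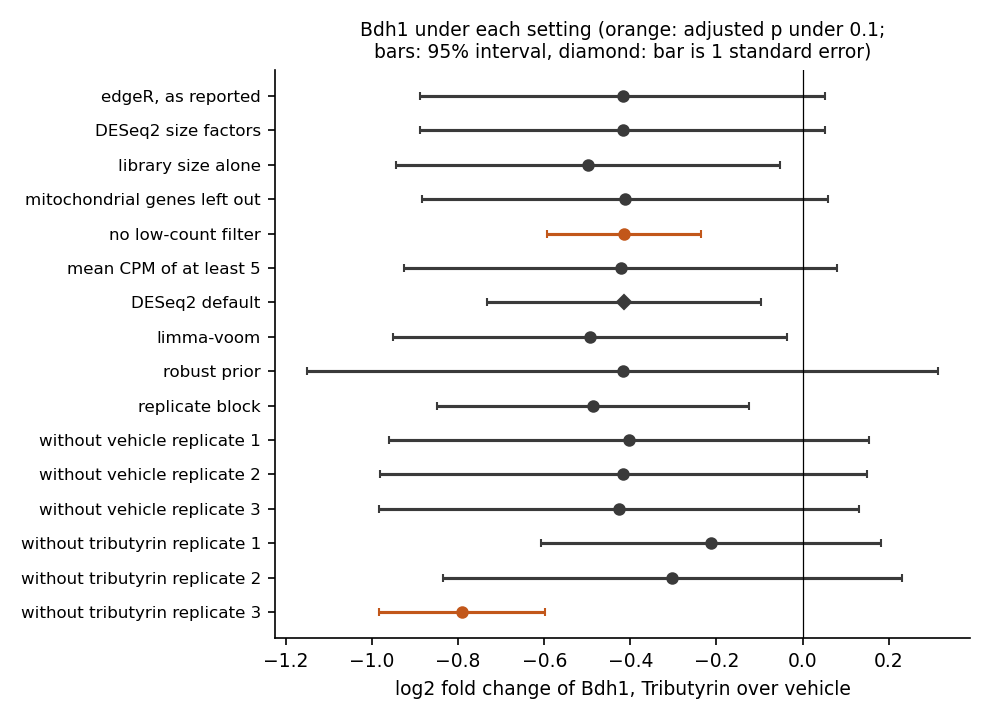
Log2 fold change of *Bdh1* with Tributyrin over vehicle (x axis) under each setting (y axis), where bars are 95% intervals, or 1 standard error for the diamond of DESeq2, and orange marks an adjusted p under 0.1. All points lie below 0, from -0.79 to -0.21, and the orange ones are the fits without the low-count filter and without Tributyrin replicate 3.

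Other values of Tributyrin replicate 3 are given beside this result, and their part in it was not tested. That library had the highest mitochondrial share, 28.8%, against 27.7% and 25.9% in Tributyrin replicates 1 and 2, and 24333168 counts. In it the ventricular markers summed to 1446415 normalized counts, the highest sum of the 6 libraries. Vehicle replicate 3 had the lowest atrial sum of its group and 2399 normalized counts of *Bdh1*. The vehicle mice with higher atrial sums had 2459 and 2439. In Tributyrin replicates 1, 2 and 3 the atrial sums were 815.4, 1687 and 1219, with *Bdh1* at 1286, 1517 and 2673. The erythroid markers summed to 24075 normalized counts in Tributyrin replicate 1, the library with the least *Bdh1*. In Tributyrin replicate 2, where *Bdh1* was also low, they summed to 9758, the lowest of the 6 libraries. The others had 12561 to 17809. The smooth muscle markers were highest in Tributyrin replicate 3, at 20640, then in Tributyrin replicate 2, at 19472, and ran from 16002 to 17741 in the others. Fibroblast markers summed to 20245, 25023 and 20583 in Tributyrin replicates 1, 2 and 3, and to 22642 to 25599 with vehicle. Endothelial markers were at 13172, 14802 and 13592 in these mice, with 13905 to 14240 in the vehicle mice. For macrophage markers the sums were 3443, 3887 and 3774, with 3346 to 3757 in the vehicle mice. The part of these lists in the *Bdh1* values was not tested. In bulk tissue, fewer cells that express a gene and less RNA per cell cannot be told apart.

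*Bdh1* shares exons with an annotated antisense gene on the minus strand, *Gm15743*. Of the 50-base words in the *Bdh1* transcripts, the length of the reads, 11.07% also lie in *Gm15743* on the other strand. *Gm15743* had at most 34 counts in a library, against at least 1375 for *Bdh1*. It ran from 13.7 normalized counts in Tributyrin replicate 2 to 39.0 in Tributyrin replicate 3, the highest library for both genes. The library kit kept strand, but the strand setting of the counting was not stated in the sources used here. Without strand, reads from the shared exons cannot be assigned to either gene.

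*Oxct1* (ENSMUSG00000022186) codes for protein and lies at chr15:4026383-4155344 in GRCm38, plus strand, with 3701 exonic bases and 5 annotated transcripts. It had 33809, 33048 and 32195 normalized counts in the vehicle mice. In the Tributyrin mice they were 33791, 32611 and 33959. The groups overlapped almost fully, with means of 33017 ± 807.5 and 33454 ± 734.7 (SD, n = 3 each). The difference was 436.7 normalized counts with a standard error of 630.3, or 1.32% (two-sided exact permutation test, p = 0.6). The log2 fold change was 0.02 (standard error 0.064, adjusted p = 0.999 by edgeR's quasi-likelihood test). Its 95% interval ran from 0.918-fold to 1.119-fold. With counts scaled by library size alone the sign turned, to -0.05, where the median gene was at -0.074.

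*Oxct1* also has an annotated partner on the minus strand, *BC037032*, which holds 11.2% of the 50-base words of its transcripts. *BC037032* had at most 166 counts in a library, against at least 25914 for *Oxct1*. The partner was at 120, 119 and 123 normalized counts with vehicle and 152, 152 and 126 with Tributyrin, without overlap between the groups. Of all genes tested, 4.26% were higher with Tributyrin without overlap. The same limit on strand holds for this pair.

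*Acat1* (ENSMUSG00000032047) codes for protein and lies at chr9:53580522-53610382 in GRCm38, minus strand, with 3758 exonic bases and 3 annotated transcripts. None of its 50-base words (0%) occur in transcripts of another gene. In the vehicle mice it had 20011, 18235 and 18612 normalized counts. They were 20732, 18449 and 20802 with Tributyrin. Tributyrin replicates 1 and 3 lay above all vehicle mice, and Tributyrin replicate 2 lay below vehicle replicates 1 and 3. The means were 18953 ± 935.4 and 19994 ± 1339 (SD, n = 3 each), a difference of 1042 normalized counts with a standard error of 943, or 5.5% (two-sided exact permutation test, p = 0.3). The log2 fold change was 0.08 (standard error 0.075, adjusted p = 0.999 by edgeR's quasi-likelihood test), with a 95% interval from 0.941-fold to 1.184-fold. With counts scaled by library size alone the difference was 67.1 normalized counts, or 0.005 on the log2 scale.

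Per exonic kilobase, the transcripts of the 3 members were present at very different levels, in the same order in every mouse. With vehicle, *Oxct1* was at 8921 ± 218 normalized counts per kilobase, *Acat1* at 5043 ± 249 and *Bdh1* at 625.7 ± 7.9 (SD, n = 3). By this level over all 6 mice, *Oxct1* ranked 101, *Acat1* 167 and *Bdh1* 1544 among the 14133 genes tested. Transcript of the first enzyme of the route was thus far below that of both later enzymes.

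The ratio of 2 members within 1 library does not depend on how libraries are scaled. *Bdh1* per kilobase was 6.92%, 7.03% and 7.09% of *Oxct1* in the vehicle mice. It was 3.62%, 4.43% and 7.49% of *Oxct1* in the Tributyrin mice. As with the normalized counts, Tributyrin replicates 1 and 2 lay below all vehicle mice and replicate 3 above them. On the log2 scale the ratio was -3.83 ± 0.02 with vehicle and -4.34 ± 0.54 with Tributyrin (SD, n = 3), a difference of -0.51 (p = 0.4 by a two-sided exact permutation test, 0.4 after adjustment over the 3 ratios).

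*Bdh1* was 11.9%, 12.9% and 12.5% of *Acat1* with vehicle and 5.99%, 7.95% and 12.4% with Tributyrin. The difference in this log2 ratio was -0.56 (two-sided exact permutation test, p = 0.2, adjusted 0.4), and here Tributyrin replicate 3 lay within the vehicle range. *Acat1* was between 54.3% and 58.3% of *Oxct1* with vehicle and between 55.7% and 60.4% with Tributyrin. The difference of this log2 ratio was 0.06 (two-sided exact permutation test, p = 0.3, adjusted 0.4). None of the 3 ratios reached 0.1, the smallest p that this design allows in the exact test.

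**Figure D4:**
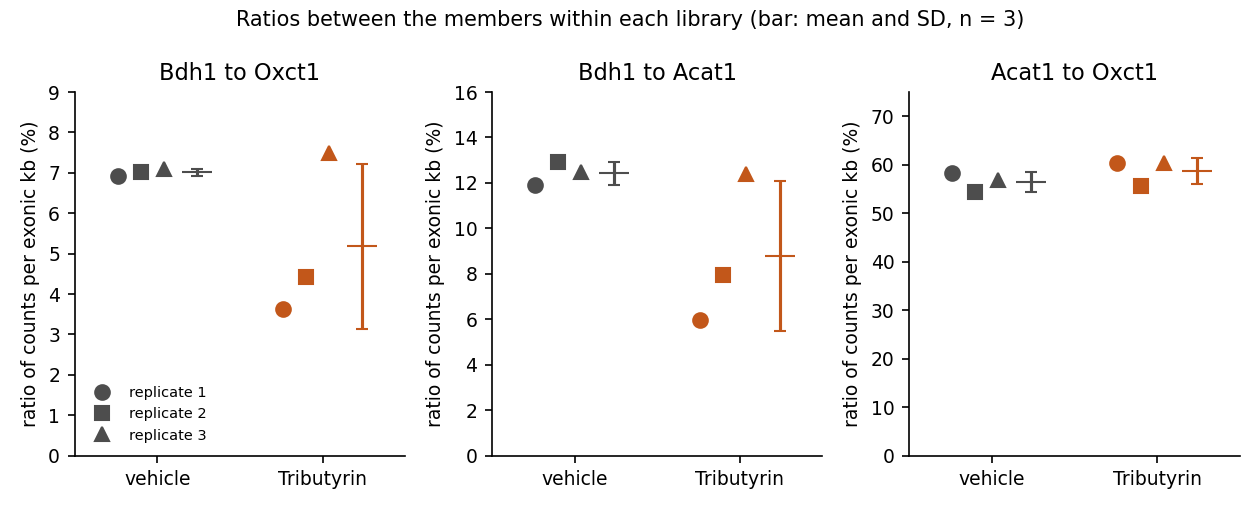
Ratio of counts per exonic kilobase between 2 members within each library, in percent (y axes, from 0), with 1 point per mouse shaped by replicate number and the mean ± SD beside it. *Bdh1* is 6.92% to 7.09% of *Oxct1* in vehicle mice and 3.62% to 7.49% in Tributyrin mice, while *Acat1* to *Oxct1* stays between 54.3% and 60.4% in all 6.

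For each member, the 3 tested genes with the most similar profile over the 6 libraries were found by Pearson's r of log2 CPM, as a description. For *Bdh1* they were *Myo19* (r = 0.990), *Rgs14* (0.981) and *Pisd-ps2* (0.976). *Myo19*, a myosin bound to mitochondria, was at 111.2, 103.9 and 108.1 normalized counts with vehicle and 63.6, 75.8 and 110.1 with Tributyrin. Its Tributyrin replicates 1 and 2 were low and replicate 3 lay inside the vehicle range, a likeness that choosing genes by r brings about. *Rgs14*, a regulator of G protein signalling, was at 14.9 to 15.6 with vehicle and 3.7, 5.5 and 13.8 with Tributyrin. *Pisd-ps2* is a pseudogene whose reads its parent gene may share, so its values are uncertain. Of 14132 genes compared, 18 had an r over 0.95 with *Bdh1*. The nearest to *Oxct1* were *Coq3* (0.991), an enzyme of coenzyme Q synthesis, *Kansl2* (0.989) and *1700096K18Rik* (0.987), with 42 genes over 0.95. The nearest to *Acat1* were *Necap1* (0.998), *Bcap29* (0.997) and *Art4* (0.996), with 95 genes over 0.95. The libraries, their depth and the scaling are shared by all genes in such a correlation over 6 points.

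The pathway list held 11 other genes of ketone synthesis, use, transport and sensing, of which 7 passed the low-count filter. None of the 7 passed an FDR of 10% by edgeR's quasi-likelihood test (0%, as over all genes), 3 had a positive and 4 a negative log2 fold change, and the median was -0.07 against -0.001 over all genes tested. At an unadjusted p under 0.05 there were 0 of 7, where 4.25% of all genes were. The groups overlapped for all 7, where 8.91% of all genes had groups that did not. *Hmgcll1* had 10 counts in all 6 libraries together and was not tested.

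Among the relatives of the members, *Bdh2*, a cytosolic dehydrogenase, had 5 to 16 counts per library, so a difference was not detectable at this depth (log2 fold change 0.29, standard error 0.456). *Acat2*, the cytosolic thiolase, was at 79.4 ± 9.8 and 71.9 ± 5.0 normalized counts (SD, n = 3), and 39.1% of its 50-base words lie in *Acat3* or *Tcp1* transcripts, so its counts are uncertain. *Oxct2a* and *Oxct2b*, SCOT genes known from testis, had 0 counts in every library, which allows up to 3 counts in each, and they share 41.73% and 53.91% of their words with each other or an overlapping transcript. *Aacs*, which activates acetoacetate in the cytosol for lipid synthesis, was at 82.6 ± 17.8 and 100.2 ± 23.5 normalized counts (log2 fold change 0.26, standard error 0.222). With 1 mouse left out *Aacs* ran from 0.08 to 0.44 and *Bdh2* from 0.02 to 0.57.

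Of the transport genes, *Slc16a1*, which encodes the monocarboxylate carrier MCT1 for ketone bodies, lactate and butyrate, was the most abundant of the listed carriers per kilobase. The vehicle mice had 6958, 7340 and 6862 normalized counts of it. They were 6373, 6814 and 6985 with Tributyrin, and the groups overlapped (log2 fold change -0.07, standard error 0.069). On the log2 scale *Slc16a7* (MCT2) was at -0.32 (standard error 0.167), or -0.47 to -0.19 with 1 mouse left out, and *Slc16a6*, a carrier for ketone export from liver, -0.13 (standard error 0.118). *Slc16a6* is uncertain, since it shares exons with the oppositely oriented *Amz2*, which had as many as 1781 counts in a library. *Bsg*, the chaperone of MCT1 at the plasma membrane, was at 28868 ± 1959 and 31080 ± 2365 normalized counts (SD, n = 3, log2 fold change 0.11, standard error 0.081). *Hcar2*, the receptor for β-hydroxybutyrate, had 1 count in all 6 libraries together. None of the tested transport genes passed an FDR of 10% by edgeR's quasi-likelihood test.

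**Figure D5:**
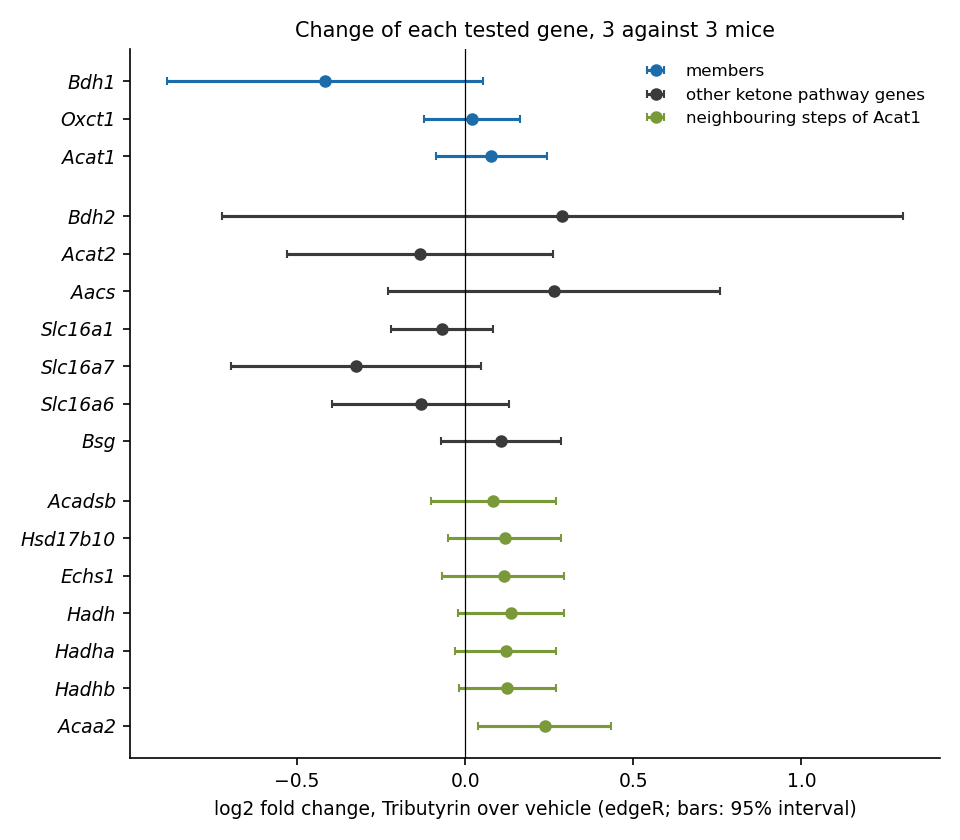
Log2 fold change with Tributyrin over vehicle (x axis) of the 3 members (blue), 7 tested genes of the ketone pathway list (black) and 7 genes of neighbouring steps of *Acat1* (green). Points are edgeR values and bars are 95% intervals derived from its test. The interval of *Acaa2* alone lies wholly above 0 and none lies wholly below. Of all genes tested, 4.25% had an unadjusted p under 0.05 by edgeR's quasi-likelihood test, and no gene passed an FDR of 10%.

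ACAT1 stands beside enzymes of isoleucine degradation and β-oxidation that feed it or do similar chemistry. All 7 of these genes passed the filter and had a positive log2 fold change, from 0.08 to 0.24 with a median of 0.12, where 49.6% of all genes tested were above 0. With library size alone all 7 were still above 0, with a median of 0.05 where the median gene was at -0.074. None passed an FDR of 10% (0% of all genes). At an unadjusted p under 0.05 by edgeR's quasi-likelihood test there was 1 of 7, *Acaa2*, where 4.25% of all genes were. *Acadsb* and *Hsd17b10*, of isoleucine degradation, were at 0.08 (standard error 0.084) and 0.12 (standard error 0.076). *Acaa2*, the mitochondrial thiolase of β-oxidation, had the largest value, 0.24 (standard error 0.089), from 29157 ± 3432 to 34329 ± 1384 normalized counts (SD, n = 3, two-sided exact permutation test, p = 0.1). The groups did not overlap for 3 of 7, *Hadha*, *Hadhb* and *Acaa2*, where 4.26% of all genes were higher with Tributyrin without overlap. This list was chosen with earlier results of these data known, and its genes share the same libraries. The counts over it are therefore a description with no test. The mitochondrial share of the counts was also higher in mean with Tributyrin, and its part in these values was not tested.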

How the data were processed

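Stranded mRNA of heart ventricle was sequenced as single 50-base reads in 6 samples, 3 per group. The authors trimmed adapters (cutadapt 1.13), removed poor and rRNA reads, aligned with STAR to mm10 and counted with htseq-count (HTSeq 0.6.1p1), per the study's methods and the submitters' processing notes. The annotation release and the strand option of the counting are not stated in the sources used here. The deposited values are raw counts per Ensembl gene, and 54165 of 54232 identifiers matched GENCODE M21 (GRCm38). No line lacked a gene (0 lines).

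Counts were scaled by TMM, filtered with filterByExpr (minimum count 10, total 15) and compared with edgeR 4.0.16 in R 4.3.3, without covariates, at an FDR of 10% (5% in the study's methods). Size factors came from DESeq2 1.42.0, and limma 3.58.1 gave voom fits. Single values and 3 ratios were compared with two-sided exact permutation tests (scipy 1.17.1). The edgeR step was tested on simulated data. Pairs of libraries differed by a chi-square per degree of freedom of 7.4 to 31.84 (summed count at least 20).

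Members and lists were chosen with earlier results of these data known. The pathway list was drawn up longer, and its counts cover the 11 genes reported here. Named are the members, the pathway and neighbour lists and, per member, the 3 genes with the highest Pearson r (prior count 2). *BC037032*, *Gm15743*, *Acat3*, *Tcp1* and *Amz2* were named after their values were seen. Alternatives were other scalings, filters, tools and priors, mitochondrial genes left out, the replicate block and each mouse left out. Libraries are named by the labels' replicate numbers.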

Additional observations from a re-analysis of the deposited data

How the results depend on the processing

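At an FDR of 10% edgeR called 0 genes, against 167 without the low-count filter, 11 with DESeq2, 2 with the replicate block and 0 to 3 with 1 mouse left out. The number of ketone body genes was 1 (*Bdh1*) without the low-count filter and 0 to 1 with each mouse left out. The log2 fold change of *Bdh1* was negative in every setting run. It passed 10% without the filter (-0.42, adjusted p 0.00157), where the model's prior had infinite degrees of freedom, and without Tributyrin replicate 3, and it ran from -0.79 to -0.21 with each mouse left out. That of *Oxct1* reversed with library size alone (-0.05, and -1219 in normalized counts). *Acat1* was positive in all settings run, at 0.005 with library size alone (67.1 normalized counts) and at 0.05 to 0.13 with 1 mouse left out (637.6 to 1814). No gene of the 11 in the pathway list passed 10% in any setting run. The replicate numbers are shared by the groups, but the deviations of same-numbered samples correlated at only 0.21, 0.04 and 0.01, so no pairing was assumed. With the replicate block *Bdh1* was at -0.49 (adjusted p 0.784), *Oxct1* at 0.02 and *Acat1* at 0.08, and the block changed no call among them. Depth limited *Bdh2*, *Hmgcll1* and *Hcar2*, and for the other changed counts the cause was not tested.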
